A study of Mus musculus with 47 samples.

Results

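Inflammatory cytokines and chemokines were followed through 9 genes of secreted or membrane-bound immune signals, taken as the rows of the deposited expression table that carry the symbols Il6, Il11, Lif, Ltb, Cxcl1, Cxcl12, Cxcl14, Ccl2 and Ptx3, out of 22632 genes. Each symbol named 1 row. The series holds 47 mRNA-seq libraries of mouse cells. Secondary embryonic fibroblasts, which carry the reprogramming factors under doxycycline control, were induced with the drug and followed as 8 clones, titled SC1 to SC4 and SI1 to SI4. Neither class name is spelled out by the labels. The d14 libraries had 14 days of doxycycline and the d21 libraries 21 days. Those of d22 and d23 had the same 21 days and then 1 day or 2 days off it, while d27 means 27 days without a break. These days follow each library's characteristics, whereas the general treatment text lists 22 and 23 among the days of treatment. Which holds was not settled by the labels, and withdrawal at d22 and d23 is stated here on the characteristics alone. The iPS cells came from SC clones alone, with 21 days on and then 6 off. The feeder group is 3 libraries of mouse embryonic fibroblasts that never had the drug. Each of the other 11 groups held n = 4 libraries, 1 per clone, so the same clones recur at every time. All the clones had been exposed to doxycycline. Strain and age were not stated, nor was any detail of the transgenes beyond the doxycycline-controlled factors.

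These genes code for signals by which injured or infected tissue calls and instructs other cells. IL-6, IL-11 and LIF bind receptors of their own that share the subunit gp130 (gene Il6st) and signal through STAT3, and LIF is the factor that keeps mouse pluripotent cells in culture. Lymphotoxin beta (Ltb) is held at the cell surface in a complex with lymphotoxin alpha and acts on the receptor Ltbr, which feeds the alternative branch of NF-kB. Cxcl1 draws neutrophils through Cxcr2, Ccl2 draws monocytes through Ccr2, Cxcl12 acts on Cxcr4 and Ackr3, and Cxcl14 is a chemokine of epithelia and stroma. Pentraxin 3 (Ptx3) is a soluble molecule that recognises microbes. Fibroblasts are a known source of most of them, and many are textbook targets of NF-kB.

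Promoter sequences are shown for the 5 members that hold a match to a motif of NF-kB or AP-1, the transcription factors best known for acting on inflammatory genes. The 250 bases before the start site come from RefSeq on GRCm38.p6, written 5′ to 3′ on the strand of the gene, with capitals marking motif matches. The deposited values carry no coordinates, and their notes name another build (mm9). The promoters lie at chr5:30012864-30013113, plus strand (Il6), chr7:4778142-4778391, minus strand (Il11, the second of its start sites), chr11:4257318-4257567, plus strand (Lif), chr17:35194257-35194506, plus strand (Ltb) and chr5:90890995-90891244, plus strand (Cxcl1).
Il6: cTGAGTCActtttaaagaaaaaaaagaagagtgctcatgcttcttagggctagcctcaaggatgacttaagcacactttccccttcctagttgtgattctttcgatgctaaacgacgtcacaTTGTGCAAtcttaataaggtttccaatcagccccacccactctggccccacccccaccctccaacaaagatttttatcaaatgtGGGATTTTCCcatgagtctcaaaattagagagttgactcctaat
Il11: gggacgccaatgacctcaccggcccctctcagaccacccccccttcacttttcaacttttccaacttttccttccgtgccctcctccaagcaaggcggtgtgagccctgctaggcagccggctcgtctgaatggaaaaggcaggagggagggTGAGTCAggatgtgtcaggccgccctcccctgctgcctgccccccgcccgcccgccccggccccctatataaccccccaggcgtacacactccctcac
Lif: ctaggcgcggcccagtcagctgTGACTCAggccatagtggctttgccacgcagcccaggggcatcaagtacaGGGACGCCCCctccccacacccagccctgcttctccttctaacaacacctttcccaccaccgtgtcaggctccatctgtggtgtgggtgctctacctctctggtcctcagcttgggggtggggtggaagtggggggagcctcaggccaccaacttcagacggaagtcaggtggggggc
Ltb: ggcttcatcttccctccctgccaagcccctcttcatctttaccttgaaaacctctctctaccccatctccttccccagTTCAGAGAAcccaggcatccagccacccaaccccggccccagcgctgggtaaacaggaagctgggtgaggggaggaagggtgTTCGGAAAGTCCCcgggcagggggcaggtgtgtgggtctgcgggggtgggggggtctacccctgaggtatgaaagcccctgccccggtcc
Cxcl1: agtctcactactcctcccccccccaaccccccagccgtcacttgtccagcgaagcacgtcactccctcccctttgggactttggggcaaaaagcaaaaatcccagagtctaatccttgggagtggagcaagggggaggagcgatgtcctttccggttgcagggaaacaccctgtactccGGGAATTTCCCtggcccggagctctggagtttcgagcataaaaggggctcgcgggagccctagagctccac
The motifs searched on both strands were AP-1 (TGANTCA), C/EBP (TTNNGNAA), STAT (TTCNNNGAA), a TATA box (TATAAA) and the kappaB motif of NF-kB. RefSeq entries were found for 8 of the 9 members, with 9 start sites, and Ccl2 had no entry. A kappaB match stood in 4 of the 8 members (Il6, Lif, Ltb and Cxcl1), against 7.25% of 32851 promoters of the same length. In Cxcl1 there were 2 overlapping matches, and in Ltb it overlaps the C/EBP match. AP-1 matched in 3 members (Il6, Il11 and Lif), against 6.75% of promoters. C/EBP matched in 3 (Il6, Ltb and Ptx3), where 36.8% of all promoters hold it. STAT matched in 2 (Ltb and Cxcl14), against 7.02%, and the TATA box in 0, against 12.4%. The Il6 kappaB match lies 44 to 35 bases before the start, that of Cxcl1 71 to 61 bases and that of Ltb 87 to 78 bases. A match describes letters only, and binding was not measured.

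Values are RPKM, reads scaled by gene length and library depth, a unit read from the values themselves. Steps between low values gave the depth of 43 of 47 libraries as 31.4 to 123.5 megareads, with a median of 69.7, although a whole multiple of these cannot be told apart. At that depth 1 read in a 1 kb gene is 0.0081 to 0.0318 RPKM. The feeders carried all 10 of 10 fibroblast markers at a mean of at least 1 RPKM, with a summed level of 7312 to 7823 RPKM. Macrophage and leukocyte markers were present there as well, with 8 of 10 at a mean of at least 1 RPKM, a sum of 185.3 to 197.1 RPKM and none at 0 in all libraries. Of 8 pluripotency markers none reached a mean of 1 RPKM in feeders and Dppa4 was at 0, while all 8 did in the iPS libraries. In bulk RNA, fewer cells of a type and less RNA per cell cannot be told apart. Clone SI3 stood apart from d21 to d23: its summed fibroblast markers were 3045, 7309 and 9057 RPKM at d21, d22 and d23, above every other SI library of the same time. Its epithelial sum was 61.68, 141.3 and 95.63 RPKM at those times against 255.8 to 1914 RPKM in the other SI libraries of those times. At d27 the fibroblast sum of SI3 was 1428 RPKM, below the other SI libraries (1489 to 1587 RPKM). The epithelial sum of SI3 at d27, 43.3 RPKM, was still the lowest of SI. Clone SC2 stood apart in pluripotency markers, with 67.87, 66.16, 156.7 and 49.59 RPKM at d21, d22, d23 and d27. The other SC libraries of those times had 232.1 to 1329 RPKM. Among the iPS libraries SC2 had 658.5 RPKM, against 915.9 to 1121 RPKM in the others. Its fibroblast sum was the highest of SC at d23, with 4516 RPKM, and of the iPS libraries, with 1723 RPKM.

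The level of 7 of the 9 members was highest in feeders, among 12 group means. Ltb and Cxcl14 were the exceptions. Without clone SI3 feeders were highest for 8 of 9, since Cxcl14 then had SI means of 42.6 RPKM at d22 and 42.3 RPKM at d23, below the feeder mean of 64.3 RPKM. The plot of member levels shows every library on a log scale.

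**Figure D1:**
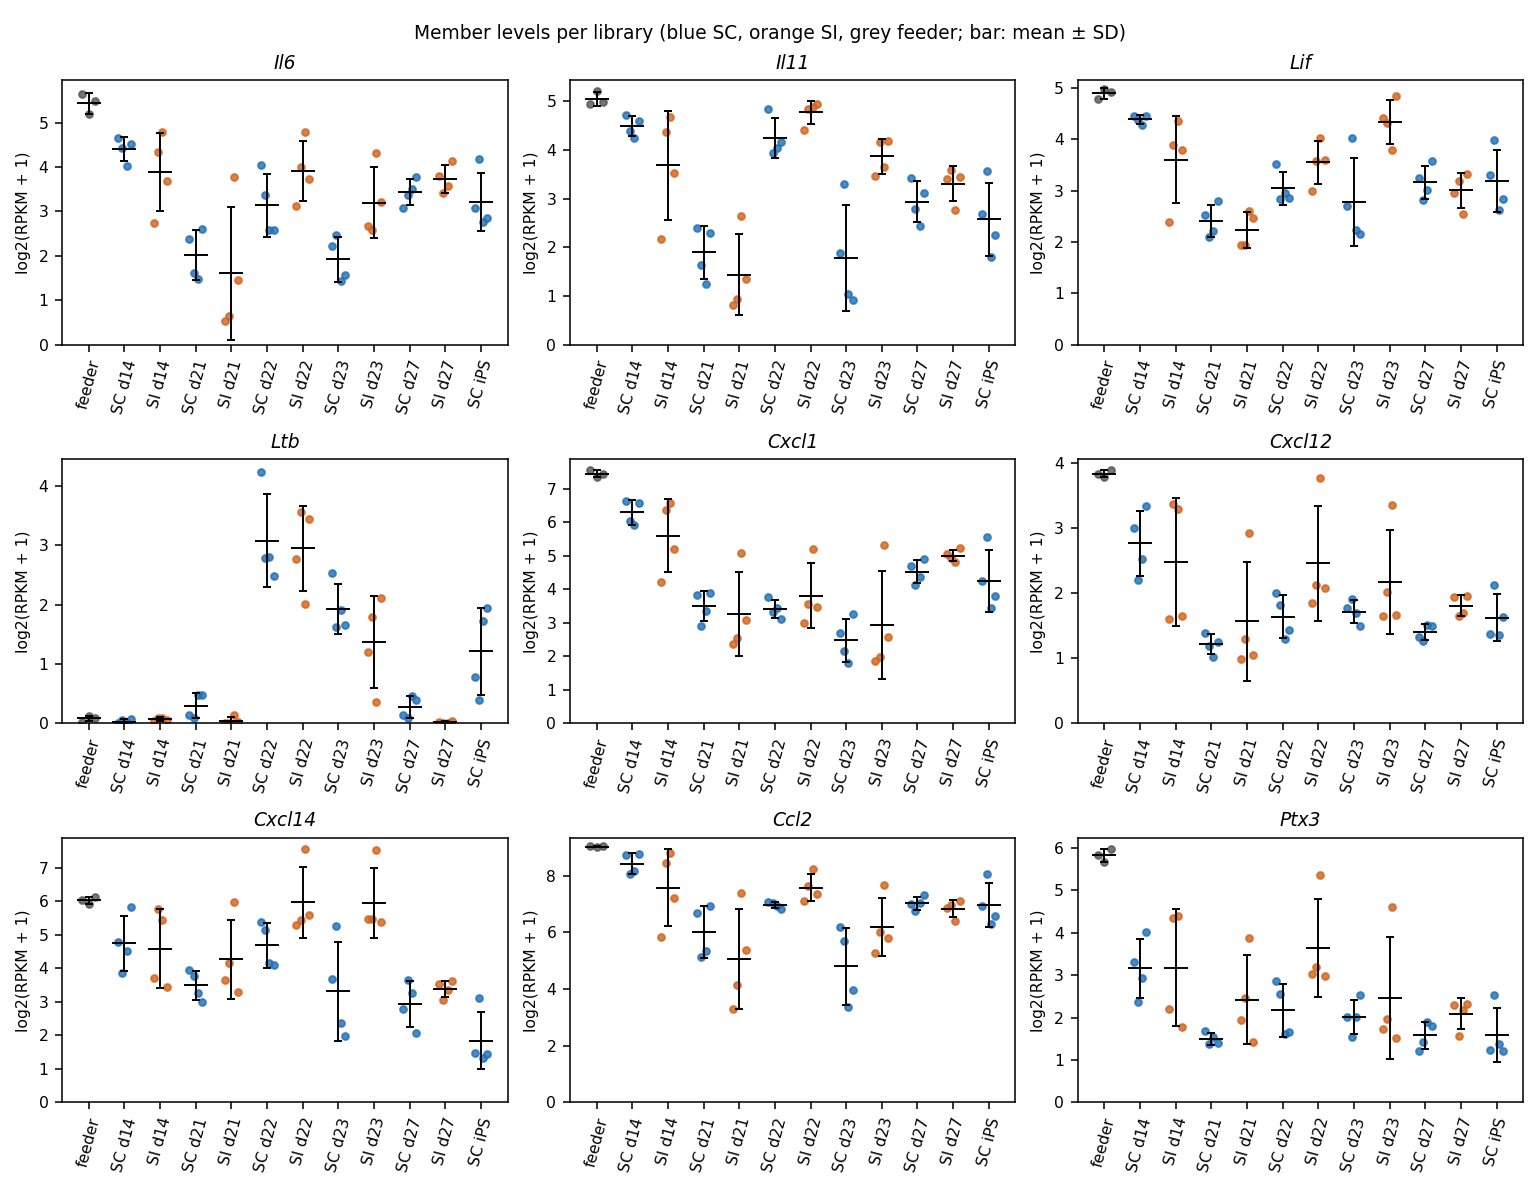
Levels of the 9 genes in all 47 libraries as log2(RPKM + 1), grouped by class and time on the x axis, with blue points for SC, orange for SI and grey for feeders, and bars for the mean ± SD of the log values. By group means in RPKM feeders are highest for 7 genes, all but Ltb and Cxcl14 (Cxcl14 only with clone SI3 included), and Ltb is near 0 except at d22, d23 and in iPS cells.

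Il6 measured 49.21, 35.45 and 44.12 RPKM in the 3 feeder libraries. The 4 SC clones, given throughout as SC1 to SC4, had 24.13, 20.57, 15.37 and 22.13 RPKM at d14 and 4.2, 2.06, 1.77 and 5.05 RPKM at d21. A day after withdrawal, at d22, they had 15.50, 9.32, 4.97 and 4.95 RPKM, and at d23 3.66, 4.54, 1.70 and 1.95 RPKM. The course was thus a fall under the drug, a rise in 3 of 4 SC clones when it was removed and levels of at most 4.54 RPKM a day later. The SI clones, SI1 to SI4, had 5.72, 19.23, 26.57 and 11.79 RPKM at d14 and 0.45, 0.56, 12.70 and 1.74 RPKM at d21. They reached 7.76, 15.09, 26.51 and 12.24 RPKM at d22 and held 5.42, 5.01, 18.88 and 8.35 RPKM at d23. SI3 was the highest SI clone at each of these 4 times, and at d23 every SI clone lay above every SC clone. At d27 the means were 9.98 ± 2.23 (SD, n = 4) RPKM in SC and 12.5 ± 3.04 (SD, n = 4) RPKM in SI, and in iPS cells 9.14 ± 5.36 (SD, n = 4) RPKM.

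Il11, a cytokine of stromal cells, moved most in this family after withdrawal. Feeders held 29.85, 35.88 and 30.86 RPKM. SC clones went from 25.20, 20.02, 18.09 and 23.31 RPKM at d14 to 4.25, 2.12, 1.38 and 3.93 RPKM at d21. Both sets are apart, with every d21 library below every d14 library. At d22 the SC clones had 27.85, 14.28, 15.49 and 17.00 RPKM and at d23 2.68, 8.81, 1.06 and 0.89 RPKM. The SI clones had 0.76, 0.92, 5.26 and 1.55 RPKM at d21, 20.40, 27.66, 28.65 and 29.87 RPKM at d22 and 10.06, 16.98, 11.63 and 17.27 RPKM at d23. Here d21 and d22 did not overlap in either class, and at d23 the lowest SI clone stood above the highest SC clone, SC2. In SI at d14 the mean was 14.6 ± 9.41 (SD, n = 4) RPKM. Means at d27 were 6.93 ± 2.31 (SD, n = 4) RPKM in SC and 9.11 ± 2.26 (SD, n = 4) RPKM in SI, against 5.63 ± 3.68 (SD, n = 4) RPKM in iPS cells.

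Lif was at 26.56, 30.60 and 29.30 RPKM in feeders. The SC clones held 20.86, 19.78, 18.37 and 20.96 RPKM at d14 and 4.76, 3.29, 3.66 and 5.99 RPKM at d21. They had 10.53, 6.18, 6.76 and 6.28 RPKM at d22 and 5.48, 15.29, 3.73 and 3.43 RPKM at d23. Most of the SC spread at d23 was SC2, the clone with the high fibroblast sum. The SI clones had 2.84, 2.82, 5.07 and 4.50 RPKM at d21, 7.01, 10.91, 15.26 and 11.18 RPKM at d22 and 20.35, 19.06, 12.95 and 27.74 RPKM at d23. From d22 to d23 Lif was higher in 3 of 4 SI clones, the exception being SI3. Its mean was 12.6 ± 6.29 (SD, n = 4) RPKM in SI at d14, and 8.15 ± 2.10 (SD, n = 4) RPKM in SC and 7.21 ± 1.82 (SD, n = 4) RPKM in SI at d27. In iPS cells the mean was 8.79 ± 4.39 (SD, n = 4) RPKM.

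Ltb behaved unlike the other members. It lay between 0.02 and 0.09 RPKM in feeders, at no more than 0.07 RPKM in all 8 clones at d14, and at 0.11, 0.07, 0.39 and 0.40 RPKM in the SC clones at d21. In the SI clones at d21 it was 0.00, 0.00, 0.11 and 0.02 RPKM. Levels under the filter of 1 RPKM left the gene out of the tests with d14, d27 or iPS libraries, of the classes at d21 and of SI d23 against d21. Against d21 or feeders it was tested only through its high d22 or d23 libraries, so a call there restates those levels. At d22 the SC clones had 17.89, 5.89, 5.99 and 4.6 RPKM and the SI clones 5.86, 10.80, 3.02 and 9.92 RPKM. Every one of the 8 clones was far above its own d21 library. At d23 the levels were 4.79, 2.07, 2.77 and 2.14 RPKM in SC and 1.31, 2.45, 0.28 and 3.35 RPKM in SI. They were thus lower than at d22 in all 8 clones and higher than at d21 in all 8. The SI3 library was the lowest SI library at both times. At d27, after 27 days with the drug, Ltb was 0.218 ± 0.156 (SD, n = 4) RPKM in SC and 0.0125 ± 0.015 (SD, n = 4) RPKM in SI. The iPS libraries, with 6 days off the drug, had 0.73, 0.32, 2.29 and 2.86 RPKM. Its partner in the complex, Lta, stayed at group means of 0.055 to 0.258 RPKM, and its receptor Ltbr was at 6.77 ± 1.35 (SD, n = 4) RPKM in SC at d21.

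Cxcl1 was among the most abundant members in feeders, at 189.45, 164.36 and 172.03 RPKM. SC clones had 99.14, 64.38, 59.66 and 95.55 RPKM at d14 and 13.19, 6.54, 9.34 and 13.87 RPKM at d21. No recovery followed in SC, with 12.67, 8.97, 9.83 and 7.71 RPKM at d22 and 5.51, 3.44, 2.48 and 8.65 RPKM at d23. SI clones had 17.71, 82.04, 93.91 and 36.28 RPKM at d14 and 4.18, 4.84, 33.23 and 7.5 RPKM at d21. At d22 they stood at 6.99, 10.87, 36.07 and 10.19 RPKM and at d23 at 2.67, 2.94, 39.00 and 4.93 RPKM. SI3 alone was higher than the other 3 SI clones together at d21, d22 and d23. With continued drug the d27 means were 22.6 ± 5.47 (SD, n = 4) RPKM in SC and 31.4 ± 3.96 (SD, n = 4) RPKM in SI, and iPS cells had 21.7 ± 16.7 (SD, n = 4) RPKM.

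Cxcl14 differed widely between clones. Feeders had 63.96, 59.86 and 68.99 RPKM, and SC clones 26.33, 13.64, 21.65 and 55.82 RPKM at d14 and 14.38, 12.55, 8.65 and 7.0 RPKM at d21. SC clones then had 40.77, 34.13, 16.67 and 16.06 RPKM at d22 and 11.70, 36.99, 4.21 and 2.93 RPKM at d23. At d23 the highest SC library was again SC2. SI clones had 11.59, 16.81, 61.39 and 8.75 RPKM at d21, 37.97, 42.78, 186.45 and 46.92 RPKM at d22 and 43.09, 42.91, 182.66 and 40.98 RPKM at d23. Its SI mean was 78.5 RPKM at d22 and 77.4 RPKM at d23 (42.6 and 42.3 RPKM without SI3), and all 4 SI clones at d23 lay above all 4 SC clones. In SI at d14 the mean was 29.2 ± 21.6 (SD, n = 4) RPKM. Means at d27 were 7.30 ± 3.61 (SD, n = 4) RPKM in SC and 9.56 ± 1.74 (SD, n = 4) RPKM in SI. The iPS libraries, at 1.79, 7.70, 1.49 and 1.72 RPKM, formed its lowest group.

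Cxcl12 had a feeder mean of 13.3 ± 0.556 (SD, n = 3) RPKM. It was 6.12 ± 2.42 (SD, n = 4) RPKM in SC and 5.57 ± 4.03 (SD, n = 4) RPKM in SI at d14. SC means from d21 on lay between 1.33 and 2.30 RPKM, iPS cells included. SI clones had 0.98, 1.46, 6.61 and 1.07 RPKM at d21, 2.59, 3.37, 12.64 and 3.23 RPKM at d22 and 2.13, 3.06, 9.16 and 2.18 RPKM at d23, with a d27 mean of 2.52 ± 0.389 (SD, n = 4) RPKM. As a difference in RPKM, though not as a ratio, the rise was thus largest in SI3, and each SI clone was higher at d22 than at d21. Ptx3 had a feeder mean of 55.7 ± 6.11 (SD, n = 3) RPKM. At d14 it was at 8.76 ± 4.75 (SD, n = 4) RPKM in SC and 11.3 ± 9.60 (SD, n = 4) RPKM in SI. Its SC means from d21 on were 1.83 to 3.83 RPKM, iPS cells included. SI clones had 2.84, 4.47, 13.55 and 1.68 RPKM at d21, 7.08, 8.14, 39.79 and 6.84 RPKM at d22 and 2.33, 2.91, 23.50 and 1.88 RPKM at d23. SI3 was the highest in each of the 3 sets, and the SI mean at d27 was 3.35 ± 0.963 (SD, n = 4) RPKM.

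Ccl2 had the highest mean RPKM of the 9 members in all 12 groups. Its feeder libraries were close together, at 523.70, 514.17 and 523.01 RPKM. SC clones had 424.17, 266.99, 285.81 and 431.23 RPKM at d14, 101.69, 34.27, 39.74 and 122.56 RPKM at d21, 132.26, 129.83, 120.29 and 113.48 RPKM at d22 and 71.91, 51.23, 9.34 and 14.59 RPKM at d23. The SC clones were spread at d21, close together at d22 and spread again at d23. SI clones had 56.08, 347.60, 450.49 and 149.41 RPKM at d14, 8.94, 16.58, 167.16 and 40.69 RPKM at d21, 137.89, 196.96, 300.65 and 162.23 RPKM at d22 and 37.69, 63.22, 201.39 and 55.18 RPKM at d23. All 4 SI clones were higher at d22 than at d21 and lower at d23 than at d22. Means at d27 were 130.6 ± 21.5 (SD, n = 4) RPKM in SC and 115.2 ± 22.5 (SD, n = 4) RPKM in SI, and iPS cells had 139.9 ± 86.7 (SD, n = 4) RPKM.

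Few neighbours in the order of the 12 group means were separated by their libraries. For Il6, Cxcl1, Cxcl12 and Ccl2 the feeders were apart from the next group, SC at d14, and for Ptx3 from the next group, SI at d22. For Cxcl14 the separated neighbours were feeders and SC at d14, below SI at d22 and SI at d23. Each of these 6 genes had 1 separated pair of 11, and Il11, Lif and Ltb had 0 of 11. The lowest group was SC d23 for Il6, Cxcl1 and Ccl2, SI d21 for Il11 and Lif, SC d21 for Cxcl12 and Ptx3, SC iPS for Cxcl14 and SI d27 for Ltb.

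From d14 to d21, with doxycycline present throughout, the members fell in SC. Differences are given as the limma estimate on the log2(RPKM + 1) scale with its standard error, and p-values are adjusted by Benjamini-Hochberg over all genes tested. The scale understates changes of low genes. Where clones moved 1 way or libraries did not overlap, the share of all genes doing so was not counted. Such statements describe values only. All 8 members tested were lower in SC at d21, against 20.6% of all genes called lower in that comparison. The median member difference was -2.19 and that of all genes 0.06. Cxcl1 fell by 2.80 ± 0.25 (SE, adjusted p = 0.000196 by limma). Il11 fell by 2.59 ± 0.25 (SE, adjusted p = 0.000244 by limma), and Lif fell by 1.98 ± 0.15 (SE, adjusted p = 0.000156 by limma). Each of the 8 was lower in 4 of 4 clones. Cxcl14 had the smallest difference, -1.25 ± 0.38 (SE, adjusted p = 0.0254 by limma), and lost its call without clone SC1, SC3 or SC4 (adjusted p = 0.0618 to 0.0938) and in the fit over all 12 groups (adjusted p = 0.101). In SI no member passed (0 of 8 by limma), and no gene did of all tested (0%), while 5 members and 2313 genes had an unadjusted p under the threshold. The SI median was -1.81, and 7 of 8 members were lower in 4 of 4 clones, the exception being Cxcl14, lower in 3 of 4. Without clone SI3 the calls were Cxcl1 and Il6, both lower, against 0.635% of genes. In the fit over all 12 groups 5 SI members were lower, against 8.83% of genes. Beside these falls the summed fibroblast markers went from 3675 ± 986.3 (SD, n = 4) to 1337 ± 146.5 (SD, n = 4) RPKM in SC and from 3467 ± 2014 (SD, n = 4) to 1734 ± 875.5 (SD, n = 4) RPKM in SI. Their part in the result was not tested.

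One day after withdrawal the members that moved went up. In SC, 2 of 9 rose, against 3.42% of all genes called higher: Ltb by 2.78 ± 0.35 (SE, adjusted p = 0.0109 by limma) and Il11 by 2.35 ± 0.30 (SE, adjusted p = 0.0109 by limma). Ltb passed the filter through its d22 libraries alone, so its call restates their level, here and in SI. Fitting clones as a block, which pairs d21 and d22 within each clone, 7 of 9 were higher, against 16.8% of genes. Those added were Il6, Lif, Cxcl12, Cxcl14 and Ptx3, while Cxcl1 and Ccl2 did not pass. Without SC3 neither main call held (adjusted p = 0.119 for both), nor did Il11 without SC1 (adjusted p = 0.104). In those fits no more than 0.00832% of all genes were called higher, and no more than 0.00832% lower. The median member difference was 0.93, and that of all genes -0.01.

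In SI, 5 of 9 members rose from d21 to d22, against 19.1% of all genes called higher. Il11 led with 3.34 ± 0.37 (SE, adjusted p = 0.000674 by limma), then Ltb with 2.90 ± 0.31 (SE, adjusted p = 0.000612 by limma) and Ccl2 with 2.53 ± 0.76 (SE, adjusted p = 0.0303 by limma). Il6 rose by 2.31 ± 0.69 (SE, adjusted p = 0.0288 by limma) and Lif by 1.32 ± 0.24 (SE, adjusted p = 0.00426 by limma). All 9 members were higher in 4 of 4 SI clones, a count not made for all genes. All 9 passed with clones as a block, against 28.5% of genes, and the same 9 passed without clone SI3, against 29.4%. Without SI1, SI2 or SI4 the calls were Il11, Lif and Ltb. The median member difference was 1.70, that of all genes -0.02. The d21 libraries stand both in this comparison and in that with d14, so the fall and the rise are not independent of each other.

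**Figure D2:**
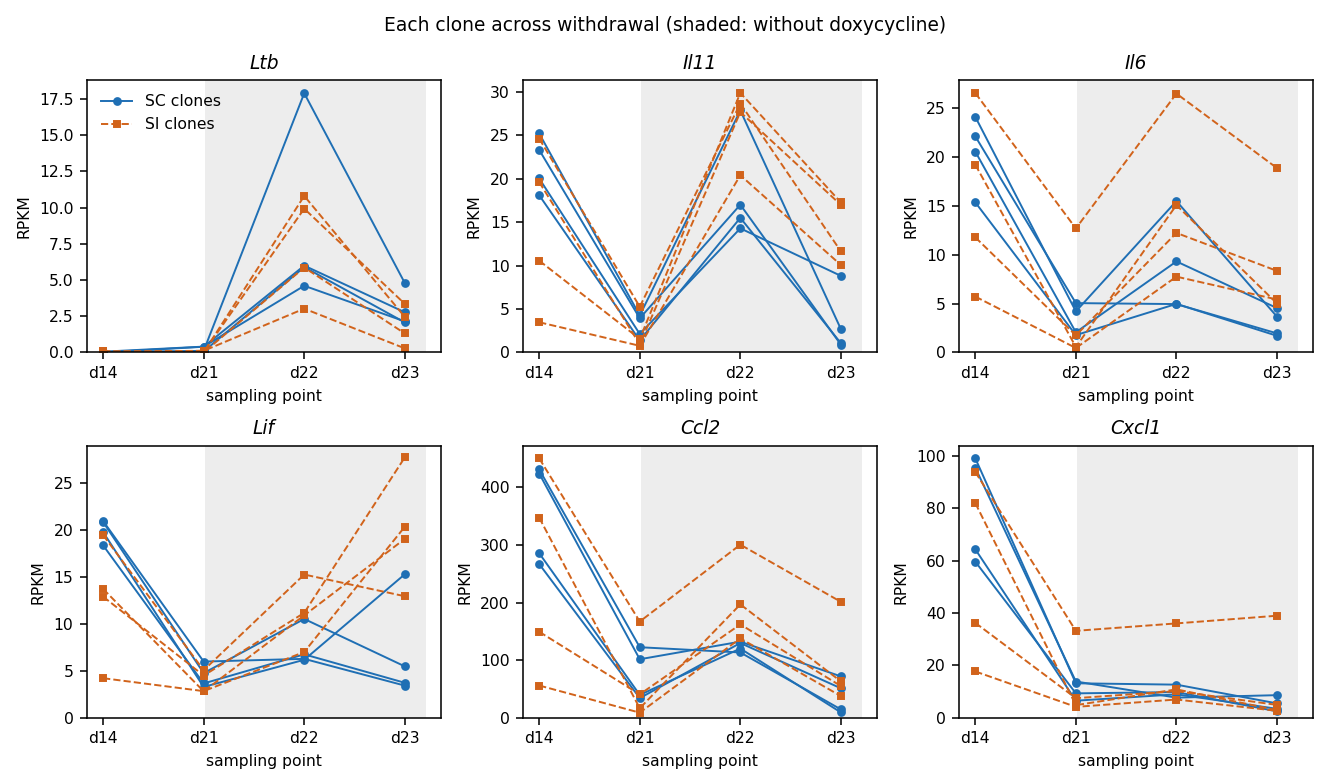
RPKM of 6 genes in each clone at d14, d21, d22 and d23, with solid blue lines for SC clones, dashed orange lines for SI clones and shading for time without doxycycline. Ltb, near 0 through d21, is at 3.02 to 17.89 RPKM at d22 in the 8 clones, and Il11 is higher at d22 than at d21 and d23 in all 8.

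Whether the 2 classes differed in this first response was tested as an interaction, chosen after the values were seen. No member passed (0 of 9 by limma, lowest adjusted p = 0.779), nor did any gene (0%), with 702 genes and 0 members under the threshold unadjusted. The difference for Ltb was -0.13 ± 0.50 (SE), and for Il11 -0.98 ± 0.50 (SE), SC minus SI. With clones as a block the count was again 0 (lowest adjusted p = 0.102 by limma), with 3353 genes and 7 members under the threshold unadjusted. Between the classes at d22 itself no member passed (0 of 9 by limma) and no gene did (0%), although 4140 genes and 4 members (Il11, Cxcl14, Ccl2 and Ptx3, all lower in SC) had an unadjusted p under the threshold. Libraries of the classes did not overlap there for Ccl2 and Ptx3, a count not made for all genes. In the fit over all 12 groups 1 of 9 members was lower there, against 12.5% of genes.

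Marker sums of other cells differed between d21 and d22 as well. Summed fibroblast markers were 2116 ± 759 (SD, n = 4) RPKM in SC and 4018 ± 2198 (SD, n = 4) RPKM in SI at d22, above d21 in both. The macrophage and leukocyte sum went from 105.1 ± 11.1 (SD, n = 4) to 163.7 ± 52.4 (SD, n = 4) RPKM in SC and from 114.5 ± 20.9 (SD, n = 4) to 256.5 ± 96.3 (SD, n = 4) RPKM in SI, against 190.2 RPKM in feeders. Most of it was Lyz2, with 198 ± 93.8 (SD, n = 4) RPKM in SI at d22, while Ptprc, the pan-leukocyte marker, had a mean of 0.778 RPKM there and 0.643 RPKM in feeders. Of the 10 markers 5 in SI at d21 and 9 at d22 reached a mean of 1 RPKM. The epithelial sum went from 266 ± 38.9 (SD, n = 4) to 411.6 ± 123.4 (SD, n = 4) RPKM in SC and from 269 ± 150.1 (SD, n = 4) to 674 ± 369.4 (SD, n = 4) RPKM in SI. The pluripotency sum went from 424 to 518.6 RPKM in SC and from 46.1 to 21.3 RPKM in SI. Ltb was at most 0.09 RPKM in the feeder libraries, and its level in such cells within the clones' cultures was not measured. The part of these cells in the members' rise was not tested.

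On the second day without drug Ltb was above its d21 level in every clone of both classes. With all libraries the filter let it be tested in SC alone, and in SI the members called higher were Il11 and Lif. In SC 1 of 9 members was above d21, against 0.985% of genes called higher: Ltb, by 1.63 ± 0.22 (SE, adjusted p = 0.00825 by limma). Ltb passed the filter through its d23 libraries alone, and its call was lost without SC1 (adjusted p = 0.0949 by limma) or SC3 (adjusted p = 0.103 by limma). The blocked fit called Ltb again, against 4.53% of genes called higher, and Cxcl1 was lower, against 8.84% called lower, with a difference of -1.02 ± 0.17 (SE, adjusted p = 0.0203 by limma). Il11 differed from d21 by -0.11 ± 0.52 (SE). In SI 2 of 8 members rose, against 22.7% of genes: Il11 by 2.43 ± 0.39 (SE, adjusted p = 0.00107 by limma) and Lif by 2.11 ± 0.24 (SE, adjusted p = 0.000265 by limma). Both kept their call without any 1 clone. Blocking by clone, 6 of 8 passed, against 26.5%, adding Il6, Cxcl12, Cxcl14 and Ccl2. Without SI3 Ltb could be tested too and 7 of 9 passed, against 29.3% of genes. Rescaling the libraries by their median ratio moved the median of all genes by 0.11 in this comparison and changed no member's direction.

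The change from d22 to d23 was added after the values were seen, as 2 comparisons. In SC none of 9 passed (0 by limma; 0% of genes), with 5 members and 1697 genes under the threshold unadjusted. The blocked fit called 5 lower, against 7.78% of genes: Il11, with a difference of -2.47 ± 0.42 (SE, adjusted p = 0.0234 by limma), and Ccl2, Cxcl14, Il6 and Ltb. In SI none of 9 passed (0 by limma), against 1.74% of genes in either direction, with 4 members and 2794 genes under the threshold unadjusted. Blocking by clone, 7 SI members were lower, against 31.2% of genes, among them Ltb with -1.58 ± 0.08 (SE, adjusted p = 0.000638 by limma). Lif was higher in that fit, against 13% of genes, by 0.80 ± 0.26 (SE, adjusted p = 0.0476 by limma), and Cxcl14 did not pass, with a difference of -0.01 ± 0.07 (SE). Without SI3 the unblocked fit called 6 lower, against 22.5% of genes, and Lif higher, against 11.4%.

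At d23 itself 4 of 9 members were lower in SC than in SI, against 19.5% of genes called lower. Il11 differed by -2.09 ± 0.49 (SE, adjusted p = 0.024 by limma), Cxcl14 by -2.64 ± 0.76 (SE, adjusted p = 0.0307 by limma), Lif by -1.57 ± 0.41 (SE, adjusted p = 0.0273 by limma) and Il6 by -1.28 ± 0.40 (SE, adjusted p = 0.0367 by limma). For Il11, Cxcl14 and Il6 the libraries of the 2 classes did not overlap, and for Lif they did, since SC2 (15.29 RPKM) lay above SI3 (12.95 RPKM). How many of all genes were apart in this way was not counted. Ltb had the opposite sign, 0.56 ± 0.38 (SE, adjusted p = 0.239 by limma), and overlapped. The median member difference was -1.28, that of all genes -0.01. Single libraries decided these calls: without SC1, SC3, SC4, SI2, SI3 or SI4 the count of members was 0, with lowest adjusted p-values of 0.0532 to 0.0805, and at most 0.0755% of genes were called higher and 0.00818% lower. Without SI1 Il11 alone passed, against 3.86% of genes called lower, and without SC2 all 4 did, against 32.5%, Il11 with an adjusted p of 0.000319 by limma. Summed fibroblast markers at d23 were 891, 1275, 2252 and 4516 RPKM in SC against 5043 to 9057 RPKM in SI, and pluripotency markers 156.7 to 1329 RPKM against 0.78 to 26.9 RPKM, so that neither sum overlapped between the classes. The macrophage and leukocyte sum did not overlap either, at 81.43 to 160.3 RPKM in SC and 181.9 to 341.8 RPKM in SI. The epithelial sum, 411.7 to 1086 RPKM in SC and 95.63 to 1914 RPKM in SI, did. Their part in the result was not tested.

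The difference in change from d21 to d23 between classes was tested as an interaction. By limma 0 of 9 members passed and 0% of genes did, with 2 members and 3237 genes under the threshold unadjusted. The estimates were -2.55 ± 0.69 (SE, adjusted p = 0.127 by limma) for Il11 and -1.75 ± 0.49 (SE, adjusted p = 0.127 by limma) for Lif, SC minus SI. Blocked by clone, 5 members were lower, against 10.8% of genes: Il11, Lif, Il6, Cxcl14 and Ccl2. Without SC2 the unblocked fit called Il11 and Lif, against 14.1% of genes called lower, and the fit over all 12 groups called 2, against 6.72%. Ltb was at 0.30 ± 0.42 (SE), and its sign turned with a pseudocount of 0.1 (-0.32).

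While the drug was present, no member passed between the classes. At d14 0 of 8 members passed by limma (0% of genes; 0 members and 169 genes under the threshold unadjusted), and at d21 0 of 8 (0%; 0 members and 1572 genes). At d27 0 of 8 passed, against 0.634% of genes in either direction, with 3 members and 2661 genes under the threshold unadjusted. The smallest adjusted p there was that of Cxcl12, -0.41 ± 0.10 (SE, adjusted p = 0.0957 by limma), whose SC and SI libraries did not overlap, and it passed without SC2 (adjusted p = 0.046). The spread of SI clones at d14 and d21 was wide: Ccl2 ranged from 56.08 to 450.49 RPKM at d14.

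From d21 to d27, with the drug kept on, Il6, Il11, Lif and Cxcl1 were higher in 4 of 4 SC clones, and the libraries of the 2 times did not overlap. How many of all genes did so was not counted. In SC 0 of 8 passed by limma, against 0.00847% of genes in either direction (5 members and 1363 genes unadjusted). Fitted with clones as a block, those 4 were higher, against 4.13% of genes, Cxcl1 by 1.03 (adjusted p = 0.00627 by limma). In SI 0 of 8 passed and 0% of genes, with 5 members and 3566 genes under the threshold unadjusted, and the block gave 0 as well. Without SI3 6 members were higher in SI, against 23.1% of genes: Ccl2, Cxcl1, Cxcl12, Il11, Il6 and Lif. The fit over all 12 groups called 3 higher, against 6.46% of genes. Cxcl1 means at d27, 22.6 RPKM in SC and 31.4 RPKM in SI, stood above those of d22 and d23, a difference that was not tested.

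**Figure D3:**
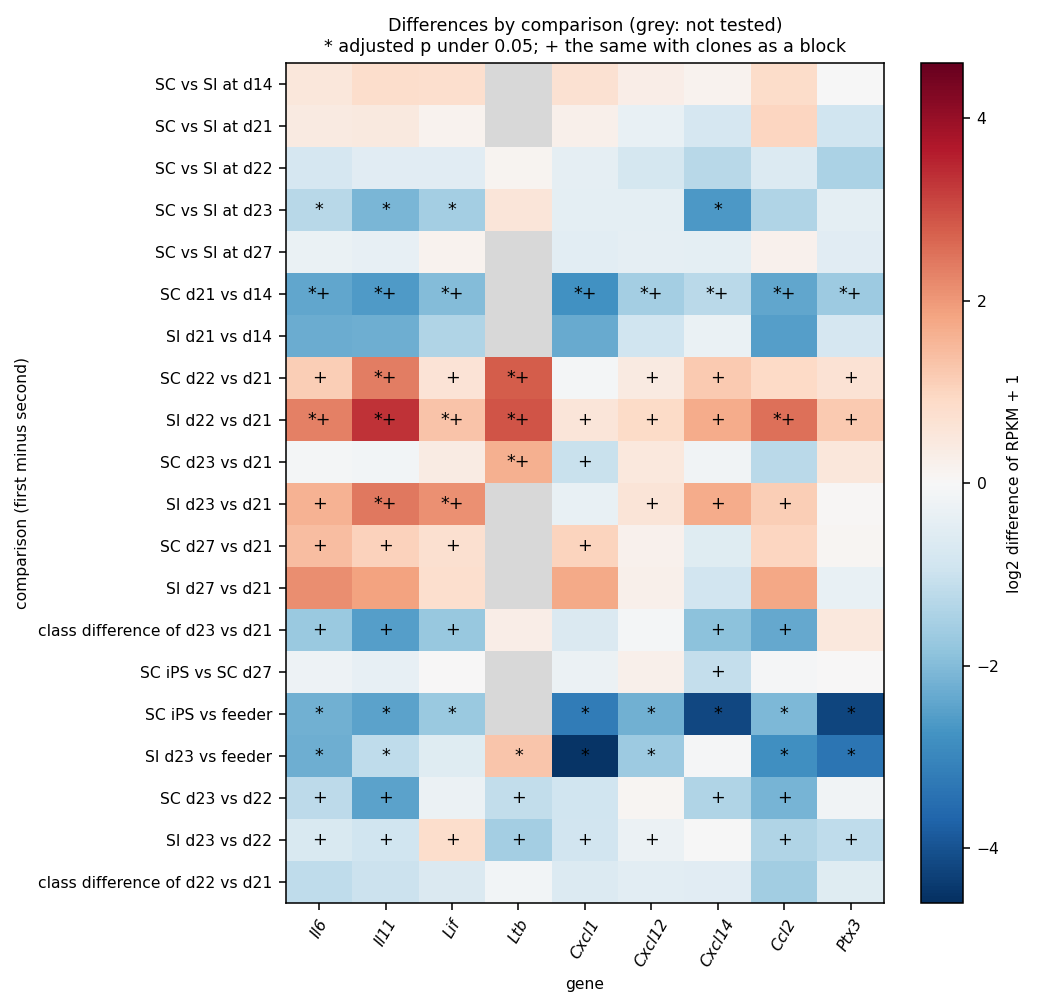
Log2 difference of RPKM + 1 (colour; red higher in the first group, blue lower) of the 9 genes (columns) in 20 comparisons (rows), with a star where the adjusted p was under 0.05, a plus where it was so with clones as a block, and grey where a gene was not tested. SC d21 against d14 is blue in all 8 tested genes, and SI d22 against d21 is red in all 9.

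In iPS cells the members other than Ltb stood below feeders, and none of the 8 passed against SC at d27. All 8 members tested were lower in iPS cells than in feeders, against 38.8% of genes called lower. No library of the 2 groups overlapped for these 8, a count not made for all genes. All 8 were lower in each fit that left out 1 library. Ltb went the other way, with 0.32 to 2.86 RPKM in iPS cells against 0.02 to 0.09 RPKM in feeders. It was under the filter of that comparison with all libraries. Without 1 feeder library it entered through its iPS levels alone and was called higher, against 38.1% to 38.4% of genes. Those fits share the iPS libraries, so the calls only restate these levels. Ptx3 differed by -4.23 ± 0.30 (SE, adjusted p = 7.11e-06 by limma), Cxcl14 by -4.19 ± 0.40 (SE, adjusted p = 2.4e-05 by limma) and Cxcl1 by -3.20 ± 0.43 (SE, adjusted p = 0.00015 by limma). Lif had the smallest gap, -1.71 ± 0.29 (SE, adjusted p = 0.00058 by limma). Against SC at d27 no member passed (0 of 8 by limma; 1.62% of genes; 1 member and 3491 genes unadjusted). Cxcl14 was lower in the blocked fit, against 7.77% of genes, by -1.10 ± 0.25 (SE, adjusted p = 0.0469 by limma), and without SC2 it passed unblocked (adjusted p = 0.0438). Clone SC2 was the highest iPS library for all 8 of these genes, with 267.12 RPKM of Ccl2 and 46.26 RPKM of Cxcl1. Summed fibroblast markers in iPS cells were 701.3 to 1723 RPKM, with SC2 the highest.

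SI cells at d23 were also set against feeders. By limma 6 of 9 members were lower than in feeders, against 14.6% of genes, and Ltb was higher, against 21.2%. Ltb passed the filter through its SI libraries alone. The gap was -4.52 ± 0.78 (SE, adjusted p = 0.00904 by limma) for Cxcl1 and -3.36 ± 0.70 (SE, adjusted p = 0.0143 by limma) for Ptx3. Lif, -0.55 ± 0.22 (SE, adjusted p = 0.0825 by limma), and Cxcl14, -0.07 ± 0.51 (SE, adjusted p = 0.921 by limma), did not pass. When any 1 feeder library was left out 3 or 4 members were lower, against 3.17% to 5.97% of genes, and without SI1, SI2 or SI4 6 or 7 were, against 9.43% to 11.2%. Without SI3 8 were lower, against 25.2% of genes, and Ltb was higher, against 39.9%. Without SI1, SI2 or SI4 Ltb was under the filter and not tested. It did not pass when a feeder library was left out.

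The members were also set against the feeder mean, beside the fibroblast markers. The median of the 8 members other than Ltb was 47.0% of feeders in SC and 42.8% in SI at d14, and 9.54% and 10.7% at d21. The medians of 10 fibroblast markers were 54.9% and 50.6% at d14, and 20.1% and 25.3% at d21. Single markers at d21 ran from 5.79% to 126% in SC and from 12.6% to 96.3% in SI. At d22 the members were at 22.0% and 38.4%, and the markers at 32.2% and 56.4%. At d23 the members were at 8.75% in SC and 26.5% in SI, where the fibroblast markers were at 29.2% and 85.1%. Without SI3 the SI values at d23 were 16.5% for members and 70.6% for markers, and at d21 4.81% and 19.0%. Without SC2 the SC values at d23 were 6.31% and 18.7%. In iPS cells both medians were low, at 16.9% for members and 14.4% for markers (12.6% and 9.90% without SC2). Single markers ran from 6.52% to 105% there (3.81% to 77.9% without SC2), so not every marker was low. Within SI at d23 the members ran from 7.07% (Cxcl1) to 120% (Cxcl14). Without SI3 Cxcl1 was at 2.00%, Cxcl14 at 65.9% and the highest member was Lif, at 77.7%. The fibroblast markers in SI at d23 ran from 60.8% to 285%, and from 45.5% to 247% without SI3. These are descriptions of group means with no test.

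**Figure D4:**
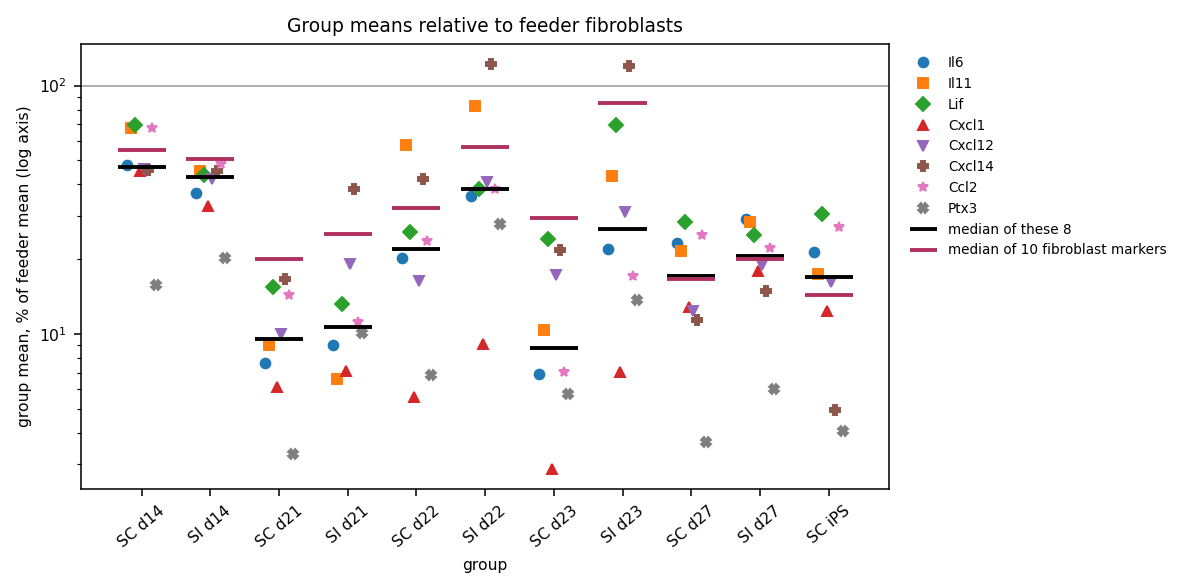
Group means as a percentage of the feeder mean (log axis) for 8 genes (symbols; Ltb left out) in the 11 groups of clones, with a black bar for their median and a red bar for the median of 10 fibroblast markers. At d23 in SI the marker median is 85.1% of feeders and the member median 26.5%. The members spread from 7.07% to 120% there, and the markers, not drawn singly, from 60.8% to 285%. Without clone SI3 the medians are 70.6% and 16.5%, with members from 2.00% to 77.7% and markers from 45.5% to 247%.

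Other genes of these pathways were read from 8 lists with 134 genes, of which 132 were found. In SI from d21 to d22, 13 of 24 tested genes of the NF-kB list rose and 0 fell, against 19.1% of all genes called higher, with a median of 0.71 against -0.02 over all genes. Without SI3 17 rose and 2 fell, against 29.4% called higher, and without SI1, SI2 or SI4 10 or 11 rose, against 6.5% to 9.11%. Nfkb1, a subunit of NF-kB, rose by 1.32 (adjusted p = 0.000665 by limma), Rela, the main activating subunit, by 0.65 (adjusted p = 0.00216 by limma) and Nfkbia, its inhibitor and a target of it, by 1.35 (adjusted p = 0.000372 by limma). The receptor Ltbr rose by 1.24 (adjusted p = 0.00242 by limma), and Relb and Nfkb2, of the alternative branch, named after their values were seen, by 1.47 and 1.43 (adjusted p = 0.00043 and 0.000372 by limma). In SC 0 of 22 passed, with a median of 0.28. The blocked fits gave 11 higher and 1 lower in SC, against 16.8% of genes called higher, and 17 higher and 1 lower in SI, against 28.5%. The difference between classes in these changes passed for 0 of 24, so a stronger change in SI was not shown. Tnf went from 0.095 to 3.48 RPKM in SI and from 0.0725 to 1.58 RPKM in SC on average, named after its values were seen, and rose by 1.95 in SI (adjusted p = 0.00163 by limma). Among the other lists in SI, 9 of 15 IL-1, TNF and Toll-like receptor genes, 8 of 16 IL-6 family receptor and signalling genes, 7 of 10 acute phase genes and 6 of 15 other chemokines rose, against the same 19.1%, and in these 4 lists 1 gene fell, of the IL-6 family. These counts moved with single clones. Without SI2 they were 1 of 16, 2 of 16, 1 of 10 and 3 of 15, against 6.55% of genes, and without SI3 12 of 15, 12 of 16, 11 of 11 and 12 of 15, against 29.4%.

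**Figure D5:**
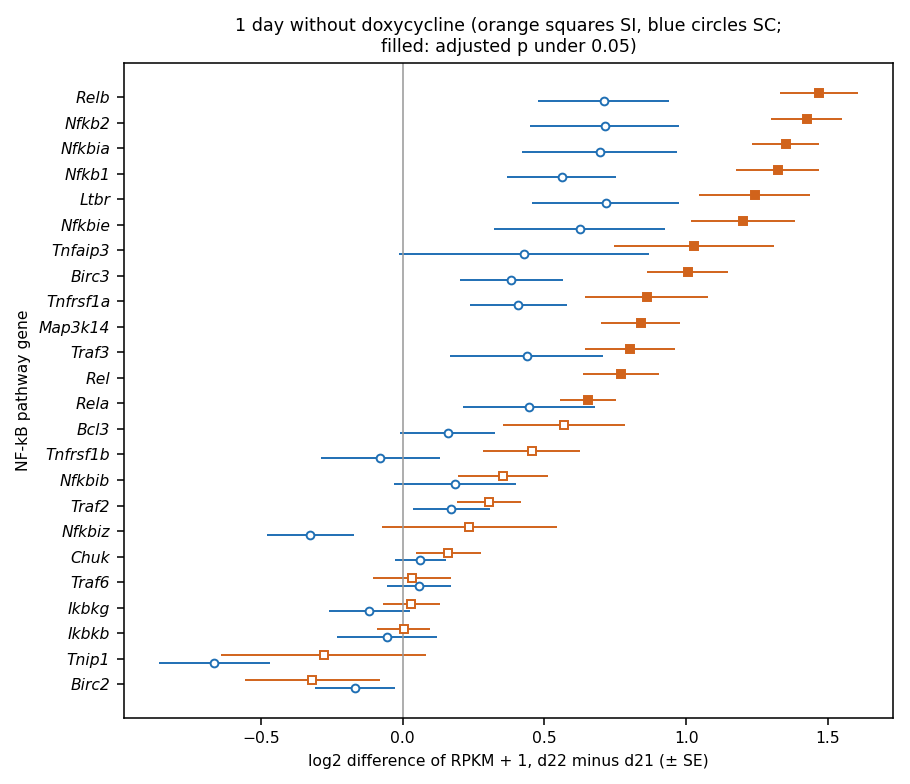
Log2 difference of RPKM + 1 between d22 and d21 (x axis, ± SE) for the tested genes of the NF-kB list (y axis), with orange squares for SI and blue circles for SC, filled where the adjusted p was under 0.05. In SI 13 of 24 are filled, all to the right of 0, and in SC 0 of 22.

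At d23 the SC cells were below SI in 10 of 23 tested NF-kB genes and above in 1, against 19.5% of all genes called lower and 23% called higher. Among those lower were Ltbr, -1.43 (adjusted p = 0.0256 by limma), Tnfrsf1a, the main TNF receptor, -1.26 (adjusted p = 0.027 by limma), Rela, -1.003 (adjusted p = 0.0333 by limma), and Nfkb1, -0.92 (adjusted p = 0.0336 by limma). Without SC1, SC3, SC4, SI2, SI3 or SI4 no gene of the 8 lists passed by limma, as with the members, and without SC2 14 of 23 were lower and 3 higher, against 32.5% and 32.8% of genes. Of 16 IL-6 family receptor and signalling genes 8 were lower in SC and 3 higher. Lifr, the LIF receptor, was higher in SC, 0.87 (adjusted p = 0.0221 by limma), with means of 4.03 RPKM in SC and 1.76 RPKM in SI, while Lif itself was lower. Cebpb, a transcription factor of the acute phase response, was lower, -1.28 (adjusted p = 0.0221 by limma), as were Il6ra, -1.06 (adjusted p = 0.0435 by limma), Il11ra1, -0.68 (adjusted p = 0.0439 by limma), and Stat3, -0.63 (adjusted p = 0.0325 by limma). Socs3, an inhibitor of that pathway, was higher in SC, 0.77 (adjusted p = 0.034 by limma), and Il6st did not pass, -0.43 (adjusted p = 0.198 by limma). Of the related ligands, Clcf1 was lower, -0.96 (adjusted p = 0.0221 by limma).

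Other secreted signals were compared at d23 as well. In SC 2 of 13 tested chemokines outside the members were lower, a share near that of all genes (19.5%), namely Ppbp, -2.18 (adjusted p = 0.0295 by limma), and Ccl9, -0.85 (adjusted p = 0.0318 by limma), and Ccl7, the most abundant, did not pass, -1.20 (adjusted p = 0.0923 by limma). Of the IL-1, TNF and Toll-like receptor list 9 of 15 were lower and 0 higher, led by Cd14, -0.84 (adjusted p = 0.0244 by limma), and Il1a, -1.13 (adjusted p = 0.0251 by limma). Ptgs2, which makes prostaglandins, was lower, -1.51 (adjusted p = 0.0221 by limma), but Icam1, a leukocyte adhesion molecule, was higher in SC, 0.89 (adjusted p = 0.0249 by limma). Csf1, the macrophage growth factor, was lower, -1.81 (adjusted p = 0.0249 by limma), as was Tnfrsf11b, -2.25 (adjusted p = 0.026 by limma). Within SI from d21 to d23 the largest of these rises were Ptgs2, 3.02 (adjusted p = 0.000203 by limma), Tnfrsf11b, 2.90 (adjusted p = 0.000547 by limma), and Csf1, 2.48 (adjusted p = 0.00194 by limma). These SC against SI calls were made in the fit whose member calls were lost without single libraries.

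Receptors on which the members act differed in level. Cxcr2, the receptor of Cxcl1, had group means of 0 to 0.135 RPKM and Ccr2, the receptor of Ccl2, of 0 to 0.0175 RPKM. Cxcr4 was at 0.59 RPKM in feeders and 1.14 to 2.60 RPKM in the other groups. Ackr3, the other receptor of Cxcl12, was highest at d21, with 12.4 ± 5.62 (SD, n = 4) RPKM in SC and 20.3 ± 10.1 (SD, n = 4) RPKM in SI, and fell in SI by 1.65 (adjusted p = 0.00414 by limma) from d21 to d23. At d23 Cxcr6 was lower in SC, -1.16 (adjusted p = 0.0282 by limma).

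In iPS cells against SC at d27 no gene of the 8 lists passed (0 by limma). Il6ra had the largest difference of the IL-6 pathway genes named here, -1.78 (adjusted p = 0.0612 by limma), and means of 0.71 against 5.89 RPKM. Pim1, a STAT3 target, differed by 1.04 (adjusted p = 0.0537 by limma) and Lifr by 0.67 (adjusted p = 0.0547 by limma), both higher in iPS cells. All 3 passed with clones as a block, with adjusted p = 0.0406, 0.0362 and 0.0474 by limma. That fit called 7.77% of all genes lower and 4.21% higher. It called 3 higher and 1 lower of 16 IL-6 family receptor and signalling genes, 5 of 13 IL-1, TNF and Toll-like receptor genes lower, 2 of 22 NF-kB genes lower, near the share of all genes, and 1 of 9 other secreted cytokines higher.

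The genes whose 12 group means most resembled each member were found by Pearson's r on log2(RPKM + 1) among 12618 genes, as a description over groups that share clones. Il11 ran closest with Mmp13 (r = 0.985), a collagenase, and Lif with Ccr1 (r = 0.99), a chemokine receptor at no more than 1.23 RPKM in any group mean. For Cxcl1 the closest was its near relative Cxcl5 (r = 0.987), and for Ccl2 Il1rl1 (r = 0.98), the IL-33 receptor, with the neighbouring chemokine gene Ccl7 second (r = 0.963). Ltb matched Gcm1 (r = 0.968), a placental transcription factor, and Car2 (r = 0.959). Cxcl14 matched Tnrc18 and Samd14 (r = 0.994 for both), Cxcl12 Slc48a1 and Sh3rf3 (r = 0.983 for both), Il6 Upf3a (r = 0.973) and Eaf1 (r = 0.966), and Ptx3 Vdr (r = 0.97) and Lama2 (r = 0.967). The second genes for Il11, Lif and Cxcl1 were Dpp9 (r = 0.971), Tm4sf1 (r = 0.978) and Slc25a37 (r = 0.98). Among the members, the 28 pairs without Ltb had a median r of 0.75 (0.229 to 0.959), and the 8 pairs with Ltb one of -0.12 (-0.549 to 0.221).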

How the data were processed

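Messenger RNA from 47 mouse libraries (24 SC, 20 SI and 3 feeder) was made into Illumina TruSeq libraries, per the labels' protocols. The authors deposited 1 table of 22632 genes by 47 libraries, with symbols and Ensembl IDs. Neither header nor labels name its unit. The values were taken as RPKM because deposited RPKM times exon length summed to 0.788 to 0.998 of the total that this unit implies, per library. The submitters' processing notes name CASAVA 1.8 and build mm9 but no role for either. Aligner and annotation: not given in the sources used here. Groups and days came from each library's characteristics, which give 21 days with and 1 day or 2 days without the drug for d22 and d23. The treatment text lists 22 and 23 among the days of treatment, so withdrawal rests on the characteristics.

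Each of 20 comparisons was fitted on its own groups with limma 3.58.1 in R 4.3.3 (lmFit, eBayes with a trend) on log2(RPKM + 1). A gene was tested if it reached 1 RPKM in a number of libraries no less than the size of the smaller group. P-values are two-sided and Benjamini-Hochberg adjusted, with a threshold of 0.05, and measure only the spread between these clones or libraries. The fit was tested on simulated data. The members, lists and comparisons were chosen with earlier results of these data known, and 3 comparisons (d23 against d22 in each class, and the class difference at d22) after the values were seen. Context genes were named by rule: receptors and signalling genes always, then up to 2 per list with the smallest adjusted p past the threshold and the most abundant gene not past it, in 3 comparisons (SC against SI at d23, SI d23 against d21, iPS against SC d27); other names are marked, and 1 gene the rule picks is not reported here. For each member the 2 genes most alike over the 12 groups were named. Markers of other cells were 39 genes.

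Same-numbered libraries over time are the same clone. Their deviations from group means correlated at 0.168 to 0.922 per pair in 10 comparisons, and at -0.358 to 0.731 in SI d21 against d14. Between SC and SI the numbers are only names. Feeder libraries differed by an SD of 0.145 to 0.194 in log2 ratio, so none was a duplicate. Alternatives were a pseudocount of 0.1, no filter, median-ratio rescaling, 1 fit over all 12 groups, clones as a block and leaving out each library or clone. Levels against feeders without SI3 or SC2, and list counts without single clones or libraries, were added after the values were seen. Figures used Python 3.11.15 with matplotlib 3.10.9.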

Additional observations from a re-analysis of the deposited data

Results flagged for a closer look

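In each of 99 groups of 4 libraries the highest or lowest RPKM was set against the others. For independent groups of normally spread values chance gives about 1 such mark in 20 groups. Here RPKM was not transformed and the groups share genes and clones, so that rate cannot judge the count of marks. There were 18 marks, all of them highest libraries, and all in 3 clones.

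Clone SI3 stood alone for Cxcl1 at d21, d22 and d23 (33.23, 36.07 and 39.0 RPKM), for Cxcl12 at the same times (6.61, 12.64 and 9.16 RPKM) and for Cxcl14 (61.39, 186.45 and 182.66 RPKM). It did so for Ptx3 at d22 and d23 (39.79 and 23.5 RPKM), for Il6 at d21 (12.7 RPKM) and for Ccl2 at d23 (201.39 RPKM). Its summed fibroblast markers were 3045, 7309 and 9057 RPKM at these times.

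The iPS library of clone SC2 stood alone for Il6 (17.12 RPKM), Cxcl14 (7.7 RPKM) and Ptx3 (4.81 RPKM), with a fibroblast sum of 1723 RPKM. Clone SC1 at d22 stood alone for Ltb (17.89 RPKM) and Lif (10.53 RPKM).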

How the results depend on the processing

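Of 170 member differences given another pseudocount (0.1), 167 kept their direction and side of the threshold, as did 167 with no filter on low values and 166 of 170 with median-ratio rescaling. Signs turned with the pseudocount for Ptx3 between the classes at d14 (0.036), Ltb in the class difference of d23 against d21 (-0.32) and Ptx3 in iPS cells against SC d27 (-0.014), and with rescaling for Ccl2 in iPS cells against SC d27 (0.044) and Cxcl14 in SI d23 against d22 (0.090). The cause was not tested. Rescaling moved the share of higher calls among all genes called from 26.0% to 37.0% in SC d23 against d21, from 25.9% to 51.8% in iPS cells against SC d27 and from 36.9% to 53.1% in SI d23 against d22.

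One fit over all 12 groups, in which they share an estimate of the spread, called 1 member between the classes at d22 (29.2% of all genes called in either direction), 5 in SI d21 against d14 (18.8%), 4 in SI d23 against d21 (61.4%), 3 in SI d27 against d21 (11.8%), 2 in the class difference of d23 against d21 (14.7%), 3 in SC d23 against d22 (11.3%) and 1 in SI d23 against d22 (5.87%). With the replicate block the counts of members were 7 in SC d22 against d21 (37.3% of all genes called in either direction) and 9 in SI d22 against d21 (57.2%). They were 2 in SC d23 against d21 (13.4%), 6 in SI d23 against d21 (63.4%) and 4 in SC d27 against d21 (11.3%). In the class difference of d23 against d21 the count was 5 (23.2%), and in iPS against SC d27 it was 1 (12%). For d23 against d22 it was 5 in SC (13%) and 8 in SI (44.2%). Between the classes, where equal numbers are names only, the block left 2 members at d23 in place of 4, and 20.1% of all genes in place of 42.5%. It changed no count of members by over 1.5 times elsewhere. No paired fit was made with feeders, which share no clone.

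Leaving out each library or clone in turn gave 0 to 2 members called in SC d22 against d21, 0 to 1 in SC d23 against d21, 0 to 1 in iPS against SC d27, 0 to 4 between the classes at d23 and 0 to 1 at d27, 0 to 2 in SI d21 against d14, 3 to 9 in SI d22 against d21, 2 to 7 in SI d23 against d21, 0 to 7 in SI d23 against d22, 3 to 9 in SI d23 against feeders, 0 to 6 in SI d27 against d21 and 0 to 2 in the class difference of d23 against d21. The share of all genes called moved too in these fits, from 0.0164% to 32.8% higher and 0% to 32.5% lower between the classes at d23, from 6.5% to 29.4% higher in SI d22 against d21, from 14.1% to 29.3% higher in SI d23 against d21, from 0% to 23.1% higher in SI d27 against d21, from 0% to 5.23% higher in SC d22 against d21 and from 3.17% to 25.2% lower in SI d23 against feeders. Elsewhere it moved from 0% to 0.831% higher in SC d23 against d21 and from 0.0343% to 10.1% lower in iPS against SC d27. Shares called lower ran from 0% to 12.3% between the classes at d27 and 0% to 0.635% in SI d21 against d14. They ran from 0% to 22.5% in SI d23 against d22 and 0% to 14.1% in the class difference of d23 against d21. In the same fits some differences of members that had not passed turned sign. Between the classes these ran from -0.48 to 0.39 for Ptx3 and -0.22 to 0.55 for Cxcl14 at d14, -0.075 to 0.83 for Cxcl1 and -0.54 to 0.10 for Cxcl12 at d21, -0.68 to 0.062 for Cxcl1 and -0.26 to 0.33 for Ltb at d22, and -0.75 to 0.28 for Ptx3 and -0.81 to 0.34 for Cxcl1 at d23. Over time they ran from -0.60 to 0.11 for Cxcl14 in SI d21 against d14 and -0.25 to 0.14 for Cxcl1 in SC d22 against d21. In SC d23 against d21 they were -0.16 to 0.71 for Lif, -0.70 to 0.31 for Il11, -0.41 to 0.22 for Il6 and -0.73 to 0.11 for Cxcl14. For Ptx3 they were -0.20 to 0.22 in SI d23 against d21, -0.023 to 0.27 in SC d27 against d21 and -0.74 to 0.12 in SI d27 against d21. In iPS against SC d27 they were -0.36 to 0.21 for Ptx3, -0.83 to 0.013 for Cxcl1, -0.36 to 0.28 for Lif, -0.55 to 0.020 for Il6 and -0.52 to 0.17 for Ccl2. In SC d23 against d22 they were -0.48 to 0.14 for Ptx3 and -0.024 to 0.18 for Cxcl12, and for Cxcl14 -0.072 to 0.051 in SI d23 against d22 and -0.59 to 0.12 in SI d23 against feeders. Ltb ran from -0.069 to 0.56 in the class difference of d23 and -0.56 to 0.13 in that of d22, each against d21.

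Depth was inferred, so no counting interval is given, and levels of Ltb under 0.1 RPKM rest on few reads.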
